A study of Mus musculus with 16 samples.

Results

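The nuclear-encoded genes of the mitochondrial respiratory chain were followed through mouse bone marrow. They were chosen by symbol: the Ndufa, Ndufb, Ndufc, Ndufs and Ndufv genes, Sdha to Sdhd, the Uqcr genes, the Cox4i, Cox5, Cox6, Cox7 and Cox8 genes and the Atp5 genes, without pseudogenes and without the Ndufaf assembly factors. This gave 85 of the 27998 genes in the count tables. By the start of the symbol alone, 38 were counted with complex I, 4 with complex II, 8 with complex III, 18 with complex IV and 17 with complex V. Whether each product is a subunit of that complex was not checked. The study gave mice recombinant IL1β, a cytokine of acute and chronic inflammation, and asked how marrow cells with and without Tet2, a DNA demethylating enzyme often mutated in clonal hematopoiesis, respond. Marrow was depleted of lineage-positive cells, freed of red cells by lysis and sequenced as single cells with 3′ counting of unique molecular identifiers (UMIs). Of the 16 mice, 4 were WT (Tet2fl/fl) with vehicle, 4 WT with IL1β, 4 Tet2-KO (Vav-Cre-Tet2-/-) with vehicle and 4 Tet2-KO with IL1β. All were C57BL/6 mice, 6 to 12 weeks old by the labels and 8 to 12 by the methods, that received vehicle or a daily intraperitoneal dose of IL1β, 500 ng each, over 5 weeks. Vav-Cre acts in the whole hematopoietic system, and as labelled only the Tet2-KO mice carried it, so that an effect of Cre cannot be told apart from loss of Tet2. Each of the 8 libraries pooled 2 mice of 1 group, whose cells carried different hashtag antibodies, and the mouse was the replicate.

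The respiratory chain moves electrons from NADH (complex I) and succinate (complex II) through ubiquinone to complex III, from there by cytochrome c to complex IV and onto oxygen. Complexes I, III and IV pump protons across the inner mitochondrial membrane, and complex V, the ATP synthase, makes ATP as they flow back. Complexes I, III, IV and V are built from subunits of both genomes, since the mitochondrial DNA encodes core membrane subunits and the nucleus all the others, while complex II is wholly nuclear-encoded. Hematopoietic stem cells are known for a low use of oxidative phosphorylation and red cell precursors for a large mitochondrial demand, which heme synthesis adds to.

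The promoters of the genes on which the later results turn are shown first, since nuclear respiratory genes are known for a shared set of promoter motifs. RefSeq promoters (GRCm38.p6) were at hand for 70 of the 85 genes. In windows of 300 bases, 250 before and 50 after the start, and on both strands, the motif of NRF1 (GCATGCGC) was found in 10 members, or 14.3%, against 2.8% of all 27025 promoters. The motif of the ETS factor GABPA (CCGGAAGT) was found in 5, or 7.14%, against 4.0%, and that of YY1 (AANATGGC) in 16, or 22.9%, against 6.23%. The motif of ERRα (TCAAGGTC) was found in 3, or 4.29%, against 1.04%, and the GC box of SP1 (GGGGCGGG) in 19, or 27.1%, against 16.7%. At least 1 of the NRF1, GABPA and YY1 motifs was in 30 members, or 42.9%, against 12.1% of all promoters. A match is only a match of letters. The windows below run from 120 bases before to 30 bases after each start, are written along the strand of the gene and carry matches to the NRF1, GABPA, YY1 and ERRα motifs, on either strand, in capitals. Cox8a and Uqcrh both hold a GABPA motif on the reverse strand, Sdhb an NRF1 motif and Sdha no match. Of the 3 genes for the c subunit of ATP synthase, Atp5g2 holds 1 stretch that matches the NRF1 motif on both strands. Atp5g3 has an ERRα motif on the reverse strand and Atp5g1 none. The windows are Cox8a at chr19:7217587-7217736 (minus strand), Uqcrh at chr4:116075041-116075190 (minus), Sdhb at chr4:140961151-140961300 (plus), Sdha at chr13:74350211-74350360 (minus), Atp5g1 at chr11:96075602-96075751 (minus), Atp5g2 at chr15:102671018-102671167 (minus) and Atp5g3 at chr2:73911297-73911446 (minus).
Cox8a: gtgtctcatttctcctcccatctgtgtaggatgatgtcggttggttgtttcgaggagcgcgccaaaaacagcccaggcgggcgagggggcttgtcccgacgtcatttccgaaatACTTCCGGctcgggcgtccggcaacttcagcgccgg
Uqcrh: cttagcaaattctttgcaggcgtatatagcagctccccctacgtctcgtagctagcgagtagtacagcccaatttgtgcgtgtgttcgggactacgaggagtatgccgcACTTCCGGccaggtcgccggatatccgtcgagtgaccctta
Sdhb: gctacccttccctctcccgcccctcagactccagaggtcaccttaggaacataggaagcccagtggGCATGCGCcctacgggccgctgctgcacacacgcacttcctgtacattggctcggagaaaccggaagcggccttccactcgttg
Sdha: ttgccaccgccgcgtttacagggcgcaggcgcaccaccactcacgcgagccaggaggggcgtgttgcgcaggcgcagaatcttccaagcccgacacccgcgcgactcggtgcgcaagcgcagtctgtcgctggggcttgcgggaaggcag
Atp5g1: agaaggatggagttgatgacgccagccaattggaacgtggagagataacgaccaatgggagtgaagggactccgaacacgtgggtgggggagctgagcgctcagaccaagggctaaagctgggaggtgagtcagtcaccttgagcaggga
Atp5g2: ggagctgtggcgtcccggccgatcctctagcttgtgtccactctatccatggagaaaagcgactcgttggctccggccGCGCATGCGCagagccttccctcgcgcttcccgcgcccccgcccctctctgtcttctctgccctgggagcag
Atp5g3: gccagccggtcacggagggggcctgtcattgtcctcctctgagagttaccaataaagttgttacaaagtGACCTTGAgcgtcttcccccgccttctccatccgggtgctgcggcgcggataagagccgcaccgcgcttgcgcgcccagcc

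The libraries held 121405 barcodes, of which 94917 were kept, 8569 to 14573 per library with a median of 4436 to 7363 UMIs per cell. Any pair of libraries shared at most 57 barcodes. Hashtags gave no call for 33083 of the kept cells. They placed 57896 cells in 1 of the 16 mice, at 4388604 to 44152768 UMIs per mouse. Marker gates placed 35677 of them (61.6%) in 1 of 18 cell classes, and 8 classes had at least 10 cells in all 16 mice. The gene by gene tests were run in 6 of these, which had been listed by name for testing, and the other two, monocyte-primed progenitors (29 to 429 cells per mouse) and megakaryocyte progenitors (32 to 278), were described by their levels alone. The tested classes were HSC-like cells (20 to 270 cells per mouse), immature myeloid progenitors (13 to 119), Elane+ granulocyte progenitors (151 to 1563), monocytes (23 to 400), basophils (23 to 546) and CFU-E stage erythroid progenitors (22 to 438). Their cells lay mostly in the cluster of the same name (75.9% to 97.0% of a class), apart from the immature myeloid progenitors, 61.3% of which lay in the HSC-like cluster. The targeted gene did not check the labels, since Tet2 stood at 31.0 to 46.9 CPM (counts scaled to a common total of UMIs) in the vehicle-treated WT and 36.4 to 46.2 in the vehicle-treated Tet2-KO group, and a 3′ tag outside the deleted part checks nothing.

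Respiratory chain transcripts made up a few percent of all UMIs in every class, with the lowest share in neutrophils and the highest in the erythroid line. In WT mice with vehicle the 85 genes took 3.81% ± 0.0838 (SD, n = 4 mice) of the UMIs of CFU-E stage cells, 3.79% ± 0.139 of those of erythroblasts and 3.52% ± 0.0405 of those of granulocyte progenitors. Monocyte-primed progenitors, at 3.54% ± 0.0722, overlapped with the granulocyte progenitors. Lower shares were held by monocytes with 3.16% ± 0.0722, megakaryocyte progenitors with 3.12% ± 0.226, immature myeloid progenitors with 3.01% ± 0.0914 and basophils with 2.72% ± 0.118. HSC-like cells held 2.44% ± 0.0284, with 2.46%, 2.4%, 2.45% and 2.45% in the 4 mice, and neutrophils 2.03% ± 0.0704. CFU-E stage cells and erythroblasts did not differ beyond their spread, while the ranges of the HSC-like cells and the granulocyte progenitors lay far apart. Of the UMIs of CFU-E stage cells, complex I took 1.19% ± 0.0189, complex V 1.07% ± 0.0284, complex IV 1.02% ± 0.0368, complex III 0.461% ± 0.0135 and complex II 0.0657% ± 0.00154. In HSC-like cells complex I took 0.813% ± 0.0228, complex V 0.695% ± 0.0254, complex IV 0.603% ± 0.00904, complex III 0.282% ± 0.0138 and complex II 0.0445% ± 0.00859. Complexes III and II held the least in both classes. No order is drawn among the other 3, since Ndufa4, counted with complex I by its symbol but found in complex IV, stood alone at 1090 CPM in CFU-E stage and 1080 in HSC-like cells. These are shares of the UMIs of a class, so that a lower share and a larger amount of other RNA cannot be told apart.

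**Figure D1:**
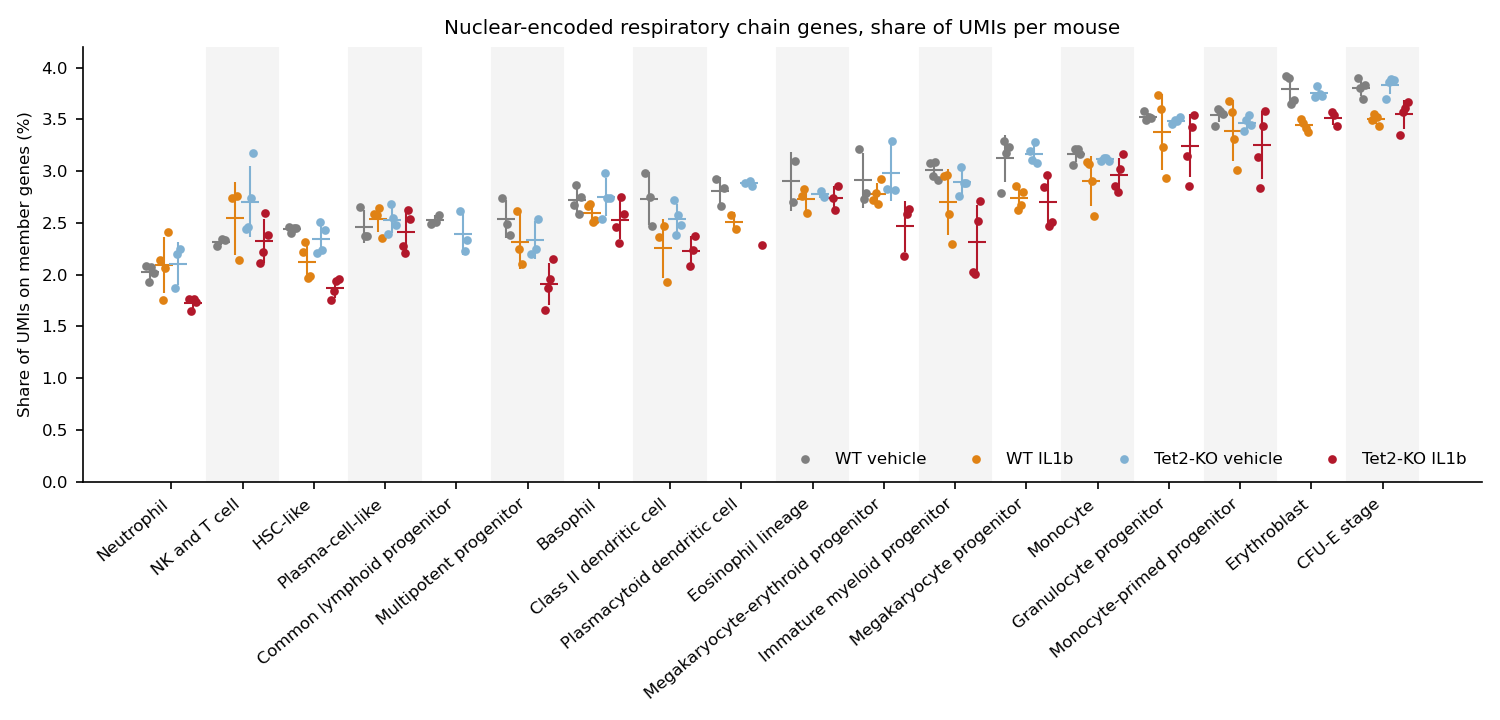
Percent of UMIs on the 85 nuclear-encoded respiratory chain genes (vertical axis) in 18 marker-gated cell classes (horizontal axis), one point per mouse with the mean and SD of each of the 4 groups. CFU-E stage cells and erythroblasts of WT mice with vehicle average 3.81% and 3.79%, HSC-like cells 2.44% and neutrophils 2.03%.

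Gene by gene, the erythroid line also held most of the highest levels. Over 79 members that reached 10 CPM in at least 1 of 17 classes, the highest mean level in WT mice with vehicle was in CFU-E stage cells for 25 genes, in erythroblasts for 23, in granulocyte progenitors for 12, in plasma-cell-like cells for 5 and in monocytes for 3. The lowest was in neutrophils for 32, in NK and T cells for 16, in plasma-cell-like cells for 13 and in multipotent progenitors for 8. A 3′ library counts 1 tag per molecule whatever the length of the transcript. Differences between genes in capture or mapping were not measured, so that CPM of different genes are set side by side only as counted. Averaged over the classes, the largest were Cox4i1, the largest nuclear subunit of complex IV, with 1270 CPM, Ndufa4 with 998, Atp5e, the ε subunit of the ATP synthase stalk, with 944, and Cox8a, a small membrane subunit of complex IV, with 932. Cox4i1 ran from 890 ± 37.8 CPM in neutrophils to 1650 ± 64.4 in erythroblasts and 1650 ± 102 in monocytes, which lie within each other's SD. The hinge protein of complex III, Uqcrh, led its complex and ran from 476 ± 22.1 CPM in neutrophils to 1110 ± 28.6 in erythroblasts. Complex II stood apart by its low level, its leading gene reaching 79.0 ± 11.7 CPM in neutrophils (Sdhb) and 215 in CFU-E stage cells (Sdhd).

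Members differed in how far they ranged between classes. Cox8a ranged only 1.72-fold, from 673 CPM in plasma-cell-like cells to 1160 in CFU-E stage cells. Atp5g1, one of the 3 genes for the c subunit of the ATP synthase rotor, ranged 4.03-fold, from 288 CPM in neutrophils to 1160 in CFU-E stage cells. Sdhd, a membrane anchor of complex II, ranged 5.97-fold, from 36.0 CPM in plasma-cell-like cells to 215 in CFU-E stage cells. Ndufv1, which binds NADH in complex I, ranged 4.8-fold, from 39.2 CPM in NK and T cells to 188 in erythroblasts. Ndufa1, a membrane subunit of complex I, went the other way, from 131 CPM in common lymphoid progenitors to 555 in plasma-cell-like cells, or 4.24-fold. Small classes make the low ends uncertain. Cox4i1, the most abundant member, had only 223 UMIs in NK and T cells and 559 in plasma-cell-like cells of WT mice with vehicle. The low ends of Ndufv1 and Sdhd there rest on far fewer.

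Of the alternative subunits named for other tissues, Cox6a2 reached the level of its common counterpart in 2 classes of WT mice with vehicle and Cox6b2 at most 30.6% of its pair. Cox6a2, the heart and muscle form of a regulatory subunit of complex IV, stood at 460 CPM (n = 3, 404 to 552) in plasmacytoid dendritic cells and at 307 ± 3.59 in common lymphoid progenitors. There it made up 54.4% (259 of its UMIs against 217 of Cox6a1) and 52.7% (167 against 150) of the pair with Cox6a1. Its part of the pair was 19.9% in plasma-cell-like cells, at 87.0 ± 77.3 CPM, and 11.6% in class II dendritic cells, and it was at 0.0 CPM in basophils. Over all 4 groups the 9 mice with enough plasmacytoid dendritic cells held 52.4 to 552 CPM, with a median of 221 against 364 for Cox6a1, so that in plasmacytoid dendritic cells it did not reach its counterpart over all mice. The 6 mice with enough lymphoid progenitors, 3 WT and 3 Tet2-KO and all with vehicle, held 305 to 500, with a median of 348 against 258. Cox6b2, the testis form of another subunit, had UMIs in every class. Its largest parts of the pair with Cox6b1 were in CFU-E stage cells, megakaryocyte-erythroid progenitors and erythroblasts. It stood there at 355 ± 17.6, 222 ± 124 and 286 ± 49.2 CPM, or 30.6%, 25.6% and 25.3% of the pair. Its part was 16.9% in HSC-like cells, 16.1% in multipotent progenitors, 15.4% in neutrophils and 12.9% in basophils. Its lowest level was 16.1 CPM in plasma-cell-like cells (3.54%), a 22-fold range whose low end rests on only 7 UMIs. The other alternative forms were near 0. Cox4i2, the lung form of Cox4i1, reached at most 5.88 CPM (0.387% of the pair, in monocyte-primed progenitors). The muscle forms Cox7a1 and Cox8b had 400 and 0 UMIs over all gated cells, Cox7b2 and Cox8c 3 each, and Ndufa4l2, the paralog of Ndufa4 known to rise in hypoxia, 11.

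**Figure D2:**
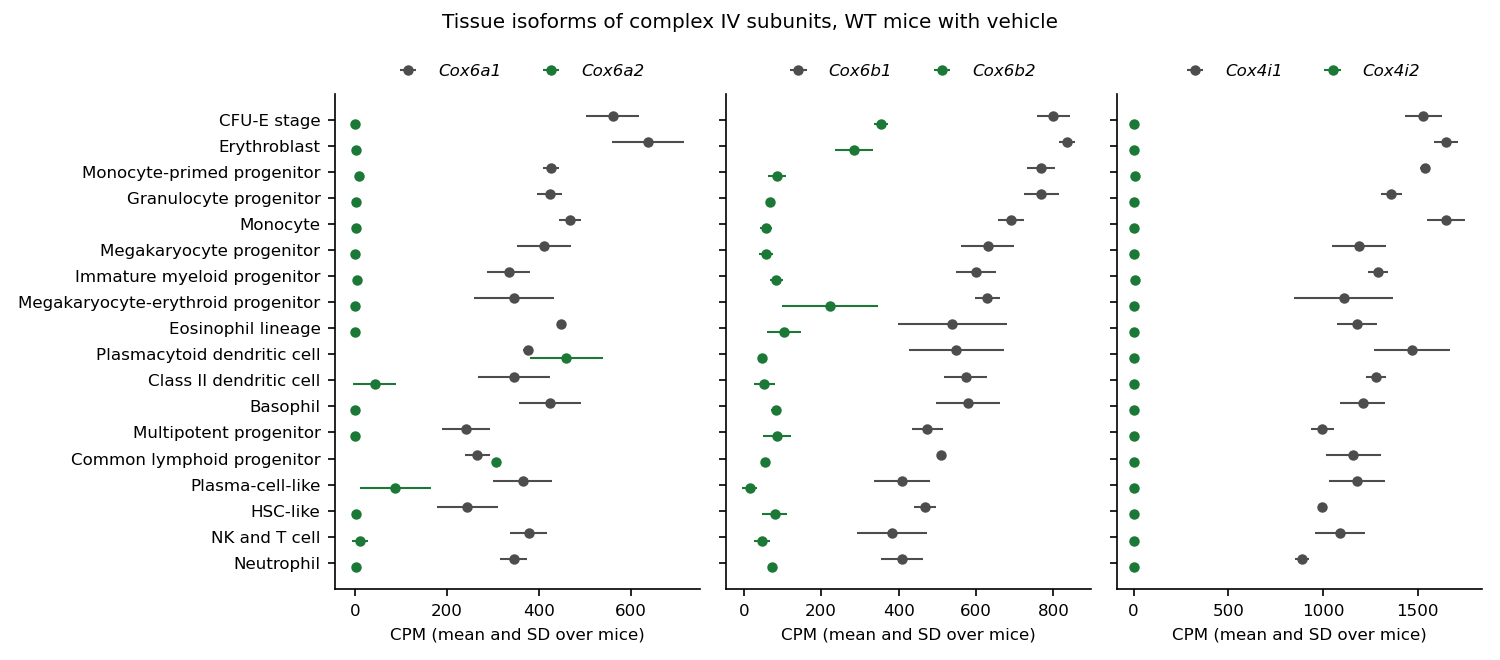
Level in CPM (mean and SD over WT mice with vehicle) of Cox6a1 and Cox6a2, Cox6b1 and Cox6b2, and Cox4i1 and Cox4i2 across 18 cell classes. Cox6a2 stands at 460 CPM in plasmacytoid dendritic cells and 307 in common lymphoid progenitors, Cox6b2 at 355 in CFU-E stage cells, and Cox4i2 at no more than 5.88.

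With IL1β, 58 to 69 of the 77 to 79 tested members had a lower level in each of the 6 tested classes of either genotype, and the share that passed the test varied between classes. A gene was called at an adjusted p below 0.05 (edgeR's quasi-likelihood test, Benjamini-Hochberg over all genes tested in the class). In WT mice, 32 of 79 tested members fell in granulocyte progenitors (40.5%, against 14.3% of all genes) and 42 of 78 in CFU-E stage cells (53.8% against 9.42%). In HSC-like cells 17 of 77 fell (22.1% against 3.87%), in immature myeloid progenitors 8 (10.4% against 4.61%), in monocytes 10 (13% against 4.18%) and in basophils 3 (3.9% against 3.34%). This background is all genes tested, whatever their counts, and genes with more counts can be called more readily. The members, 85 of 27998 genes, held 3.81% of the UMIs of CFU-E stage cells of WT mice with vehicle. No background of genes with like counts was made, so that the excess of calls is not shown to be particular to the members. Members that rose in WT mice were 1 in granulocyte progenitors, 2 in immature myeloid progenitors and 2 in CFU-E stage cells, where 10.3%, 2.63% and 7.25% of all genes rose. None rose in HSC-like cells, monocytes or basophils, where 2.71%, 2.33% and 1.48% of all genes did. The basophil count in WT mice lies near its background, but the counts of basophils and monocytes depended on the method. In Leiden clusters in place of gates 14 members were called in either direction in basophils and 32 in monocytes of WT mice, and DESeq2 called 9 in basophils. A cluster does not hold the same cells as its gate. The shares of all genes called in these runs are not given, so these counts are not set against a background.

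In Tet2-KO mice, 38 of 79 fell in granulocyte progenitors (48.1% against 19.2% of all genes), 38 of 78 in CFU-E stage cells (48.7% against 9.21%) and 29 of 77 in HSC-like cells (37.7% against 5.47%). In immature myeloid progenitors 26 fell (33.8% against 8.6%), in basophils 10 (13% against 3.52%) and in monocytes 8 (10.4% against 3.39%). Members that rose were 3 in granulocyte progenitors, 1 in CFU-E stage cells and 1 in basophils, where 16.6%, 5.94% and 1.51% of all genes rose. None rose in HSC-like cells, immature myeloid progenitors or monocytes, where 5.26%, 6.88% and 1.71% of all genes did. The median log2 fold change of the members was −0.34 in HSC-like cells, −0.24 in immature myeloid progenitors, −0.28 in granulocyte progenitors, −0.22 in monocytes, −0.18 in basophils and −0.27 in CFU-E stage cells of WT mice. It was −0.41, −0.42, −0.29, −0.21, −0.2 and −0.24 in the same classes of Tet2-KO mice. Over all genes tested the medians were 0.01 to 0.04.

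**Figure D3:**
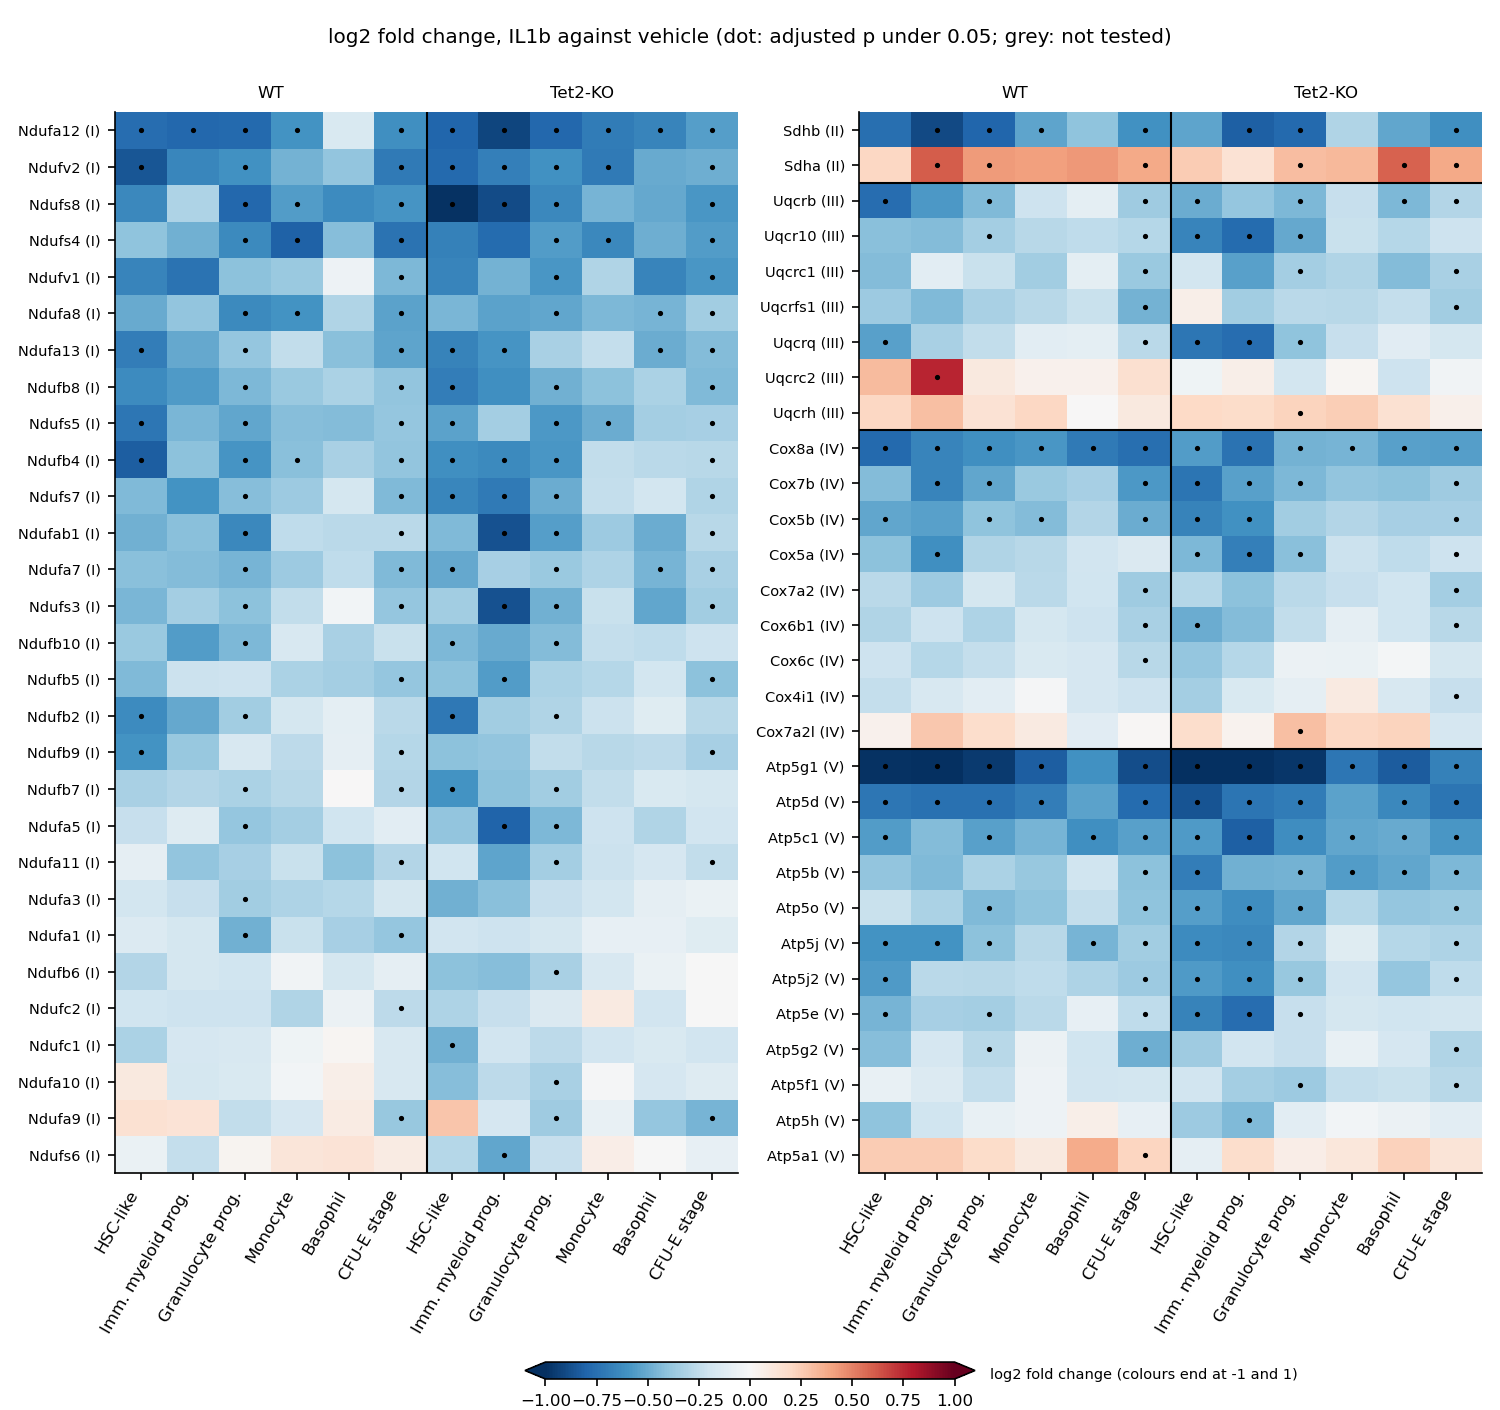
Heat map of the log2 fold change with IL1β against vehicle for each member called in at least 1 of the 12 comparisons (rows, by complex) in 6 cell classes of WT and Tet2-KO mice (columns), colours ending at −1 and 1, with a dot where the adjusted p was below 0.05 and grey where the gene was not tested. The rows shown are mostly lower, Sdha is higher in all 12 columns, and the median of all tested members is −0.18 to −0.34 in WT and −0.2 to −0.42 in Tet2-KO mice.

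The share of UMIs moved in step in some classes and not in others. In HSC-like cells it was 2.46%, 2.4%, 2.45% and 2.45% in WT mice with vehicle and 2.22%, 2.32%, 1.97% and 1.99% with IL1β. In Tet2-KO mice it was 2.21%, 2.51%, 2.24% and 2.43% with vehicle and 1.75%, 1.84%, 1.94% and 1.96% with IL1β. The groups did not overlap in either genotype. CFU-E stage cells went from 3.81% ± 0.0838 to 3.5% ± 0.045 in WT and from 3.83% ± 0.0887 to 3.55% ± 0.137 in Tet2-KO mice (SD, n = 4 each), again without overlap. The size of these differences depended on the total. In percentage points they were −0.312 in WT and −0.48 in Tet2-KO HSC-like cells and −0.309 and −0.278 in CFU-E stage cells, and without mitochondrial and ribosomal protein genes in the total −0.736, −0.863, −0.768 and −0.604. In Leiden clusters those of the HSC-like cells were −0.165 and −0.335. In granulocyte progenitors the groups overlapped: the WT mice held 3.58%, 3.49%, 3.52% and 3.51% with vehicle and 3.74%, 3.6%, 3.23% and 2.93% with IL1β, the Tet2-KO mice 3.46%, 3.49%, 3.48% and 3.52% with vehicle and 3.15%, 2.86%, 3.43% and 3.54% with IL1β. With IL1β, both mice of the first WT pool lay above those of the second, and both mice of the first Tet2-KO pool below those of the second, whereas the vehicle-treated pools of a group overlapped. Neutrophils of WT mice held 2.03% ± 0.0704 with vehicle and 2.09% ± 0.272 with IL1β, those of Tet2-KO mice 2.11% ± 0.204 and 1.73% ± 0.0545.

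Since mice of a pool shared a library, calls made over mice depend on the libraries. With the 8 pools as replicates the members called, in either direction, were 31 in CFU-E stage cells, 5 in HSC-like cells, 4 in immature myeloid progenitors, 3 in granulocyte progenitors, 1 in monocytes and 0 in basophils of WT mice. In Tet2-KO mice they were 22 in HSC-like cells, 15 in immature myeloid progenitors, 7 in granulocyte progenitors and 0 in monocytes, basophils and CFU-E stage cells. Without the second WT pool with IL1β, 0 members were called in HSC-like cells and 11 in granulocyte progenitors of WT mice, at a median log2 fold change of −0.09 in the latter. Without the first, 53 were called there. Without the second Tet2-KO pool with vehicle, 2 were called in HSC-like cells, 15 in granulocyte progenitors and 0 in CFU-E stage cells of Tet2-KO mice, and without the first Tet2-KO pool with IL1β 8, 14 and 8. The shares of all genes called in these runs are not given, so these counts are not set against a background. The library of a mouse and its spread within the group cannot be told apart, and p-values over mice may be too small.

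Other measures moved with IL1β beside these counts. The share of UMIs from the mitochondrial genome was higher by its median over all cells of a group, given without a spread over mice. This median share was 4.38% and 5.02% in HSC-like cells, 3.92% and 5.24% in granulocyte progenitors and 4.39% and 5.69% in CFU-E stage cells of WT mice with vehicle and IL1β. In Tet2-KO mice it was 4.06% and 4.88%, 3.69% and 4.91%, and 4.0% and 5.43%. Fold changes also went with transcript length: over all genes tested, Spearman's rho between length and log2 fold change was 0.31 to 0.43 over the 12 comparisons, a description across genes that share their libraries. Other genes with transcripts under 1000 bases had medians of −0.27 to −0.45, lower than that of the members in each comparison except that of HSC-like cells of Tet2-KO mice (−0.4 against −0.41), and genes of 3000 bases or more 0.11 to 0.22. Among the members rho was −0.28 to −0.04, and the 34 to 35 members over 1000 bases had medians of −0.17 to −0.47 against −0.16 to −0.41 for the 43 to 44 shorter ones. Marker lists moved too. Of the 18 lists, 4 were higher without overlap of the groups in the HSC-like gate of WT mice and 4 in that of Tet2-KO mice, and 3 and 3 in the immature myeloid gate, with none lower. In the granulocyte progenitor gate 2 were higher and 3 lower in WT mice, against 3 and 2 in those without Tet2, in monocytes 1 higher and 0 lower, and 2 higher and 3 lower, in basophils 3 higher and 2 lower, and 0 higher and 1 lower, and in CFU-E stage cells 5 higher and 0 lower, and 1 higher and 1 lower. In the granulocyte progenitor gate the list of that class (6 of 6 genes with UMIs) was lower with IL1β, at a summed 19400 to 20900 CPM with vehicle and 15100 to 15900 with IL1β in WT and 20600 to 23600 and 15800 to 20300 in Tet2-KO mice. In the same gate the list of HSC-like cells (8 of 8) was higher (47.5 to 61.7 and 77.1 to 92.9 CPM in WT mice, 47.0 to 56.8 and 56.8 to 88.2 in Tet2-KO mice) and that of NK and T cells (7 of 8) lower (1200 to 1270 and 749 to 904, and 1120 to 1300 and 844 to 1020). The NK and T cell list holds Nkg7, which is also a leading gene of a granulocyte progenitor cluster. Its sum in this gate is therefore not a measure of NK and T cells. In the HSC-like gate the multipotent list (5 of 6, Flt3 at 0) was higher, at 1030 to 1670 and 1700 to 2760 CPM in WT and 1680 to 1790 and 2030 to 3140 in Tet2-KO mice, and so was the megakaryocyte-erythroid list (4 of 5, Gata1 at 0), at 502 to 526 and 580 to 725, and 454 to 533 and 698 to 816. Also higher there were the monocyte list in WT mice (7 of 7, 36.3 to 130 and 189 to 247 CPM) and the basophil list in Tet2-KO mice (6 of 6, 187 to 413 and 449 to 697). In the immature myeloid gate the multipotent list (6 of 6) was higher in Tet2-KO mice, at 1350 to 1660 and 1890 to 2720 CPM, and overlapped in WT mice. In the CFU-E stage gate of WT mice the basophil list (6 of 6, 60.9 to 181 and 345 to 1710 CPM) and the megakaryocyte progenitor list (7 of 7, 18.6 to 48.5 and 64.3 to 1140) were higher. The part of length, of the mitochondrial share and of these lists in the result was not tested.

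Complex V held Atp5g1, the member with the largest decrease in 10 of the 12 comparisons of IL1β with vehicle. It encodes, like Atp5g2 and Atp5g3, the same mature c subunit, of which the rotor ring in the membrane is made. Atp5g1 fell in 5 of 6 classes of WT and in 6 of 6 of Tet2-KO mice. In granulocyte progenitors it stood at 995, 874, 856 and 812 CPM (scaled by TMM, as are the values per mouse that follow) in WT mice with vehicle and at 616, 528, 345 and 329 with IL1β. In Tet2-KO mice it stood at 785, 862, 1020 and 1050 with vehicle and at 393, 381, 546 and 579 with IL1β. The groups lie well apart, and the 2 pools are visible in the values of both Tet2-KO groups and of the WT mice with IL1β. The log2 fold change was −0.96 (SE 0.17, edgeR adjusted p = 0.000575) in WT and −0.97 (SE 0.17, adjusted p = 0.000242) in Tet2-KO mice. In HSC-like cells it went from 473, 470, 380 and 361 CPM to 247, 268, 154 and 149 in WT mice, and from 416, 380, 387 and 535 to 108, 163, 237 and 241 in Tet2-KO mice. The log2 fold changes there were −0.99 (SE 0.20, adjusted p = 0.0022) and −1.12 (SE 0.19, adjusted p = 0.000261). In immature myeloid progenitors of Tet2-KO mice it went from 527, 618, 723 and 717 to 113, 165, 316 and 326 CPM, the largest change of a member there (log2 fold change −1.46, SE 0.21, adjusted p = 4.41e-05). In basophils of WT mice, the class without a call, the groups still did not overlap, with 454, 630, 358 and 378 CPM against 336, 269, 219 and 319 (log2 fold change −0.61, SE 0.19, adjusted p = 0.0616). Without the second WT pool with IL1β the call was lost in HSC-like cells (−0.7) and immature myeloid progenitors (−0.86) of WT mice. The calls in HSC-like cells, immature myeloid progenitors and granulocyte progenitors of Tet2-KO mice and in CFU-E stage cells of WT mice held under every alternative run. For single genes these were DESeq2, no low-count filter, the pool number as a block and the 8 pools as replicates. Each of the 16 mice, of either genotype, and each library of the genotype compared was also left out. Leiden clusters were used too, except in immature myeloid progenitors, for which there was no cluster. Losses given beside a gene are mostly those with a library left out. With the 8 pools as replicates 59 of the 101 calls given for single genes were lost, those of members in CFU-E stage cells of Tet2-KO mice included.

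The other genes for the same subunit had smaller changes or none that passed. Atp5g1 in CFU-E stage cells went from 1330, 1270, 1130 and 1140 to 747, 757, 564 and 553 CPM in WT mice (log2 fold change −0.89, SE 0.13, adjusted p = 0.000219). It went from 967, 1050, 1490 and 1420 to 695, 675, 836 and 877 CPM in Tet2-KO mice (−0.68, SE 0.13, adjusted p = 0.00205), a call that was lost without the second Tet2-KO pool with vehicle (−0.37) or the first with IL1β (−0.52). Atp5g2 went from 911, 872, 817 and 847 to 696, 665, 568 and 512 CPM in WT mice (log2 fold change −0.49, SE 0.10, adjusted p = 0.00263). In Tet2-KO mice it went from 746, 741, 948 and 999 to 760, 639, 687 and 717 CPM, where the groups overlap (−0.30, SE 0.10, adjusted p = 0.0499). The WT call of Atp5g2 was lost without the first pool with vehicle (−0.45) or the second with IL1β (−0.36), and the Tet2-KO call in 16 of its 25 alternatives, among them those without the second pool with vehicle (−0.09) and without the first (−0.29) or second (−0.34) with IL1β. Atp5g3 stood at 618, 540, 567 and 578 CPM with vehicle and 598, 597, 633 and 656 with IL1β in WT mice (0.10, SE 0.07, adjusted p = 0.375), and it was called in none of the 12 comparisons, with log2 fold changes of −0.19 to 0.25. The difference between the 3 genes was not tested.

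In the catalytic head and the stalks of complex V, calls were spread over several subunits. Atp5d, the δ subunit of the central stalk, fell in 5 of 6 classes of either genotype. In CFU-E stage cells it went from 522, 499, 452 and 450 to 288, 319, 257 and 263 CPM in WT mice (log2 fold change −0.77, SE 0.13, adjusted p = 0.000451). In Tet2-KO mice it went from 387, 399, 566 and 581 to 248, 256, 332 and 329 CPM (−0.73, SE 0.13, adjusted p = 0.00108), a call lost without the second vehicle pool (−0.41). Atp5c1, the γ subunit that turns in the head, fell in 4 WT and 6 Tet2-KO classes, in basophils of WT mice from 339, 370, 293 and 323 to 230, 219, 202 and 200 CPM (−0.61, SE 0.13, adjusted p = 0.00728). That basophil call was lost without the first WT pool with vehicle (−0.55) or the second with IL1β (−0.53). Atp5j, the F6 subunit of the peripheral stalk, fell in 5 and 4 classes, and Atp5o, which joins that stalk to the head, in 2 and 4. Atp5b, the catalytic β subunit, fell in 1 WT and 5 Tet2-KO classes, and its α partner Atp5a1 was called once, higher, in CFU-E stage cells of WT mice (0.22, SE 0.08, adjusted p = 0.05), which was lost in 22 of its 25 alternatives, each WT pool left out included (0.14 to 0.26). Over complex V as a whole, 9 of 17 tested genes fell in CFU-E stage cells of both genotypes, 7 and 9 of 17 in granulocyte progenitors and 6 and 8 of 16 in HSC-like cells of WT and Tet2-KO mice. The shares of all genes that fell there were 9.42% and 9.21%, 14.3% and 19.2%, and 3.87% and 5.47%. In immature myeloid progenitors 3 and 8 of 16 fell, in monocytes 2 and 3 and in basophils 2 and 4. These are to be read beside the shares of all genes given above for those classes.

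**Figure D4:**
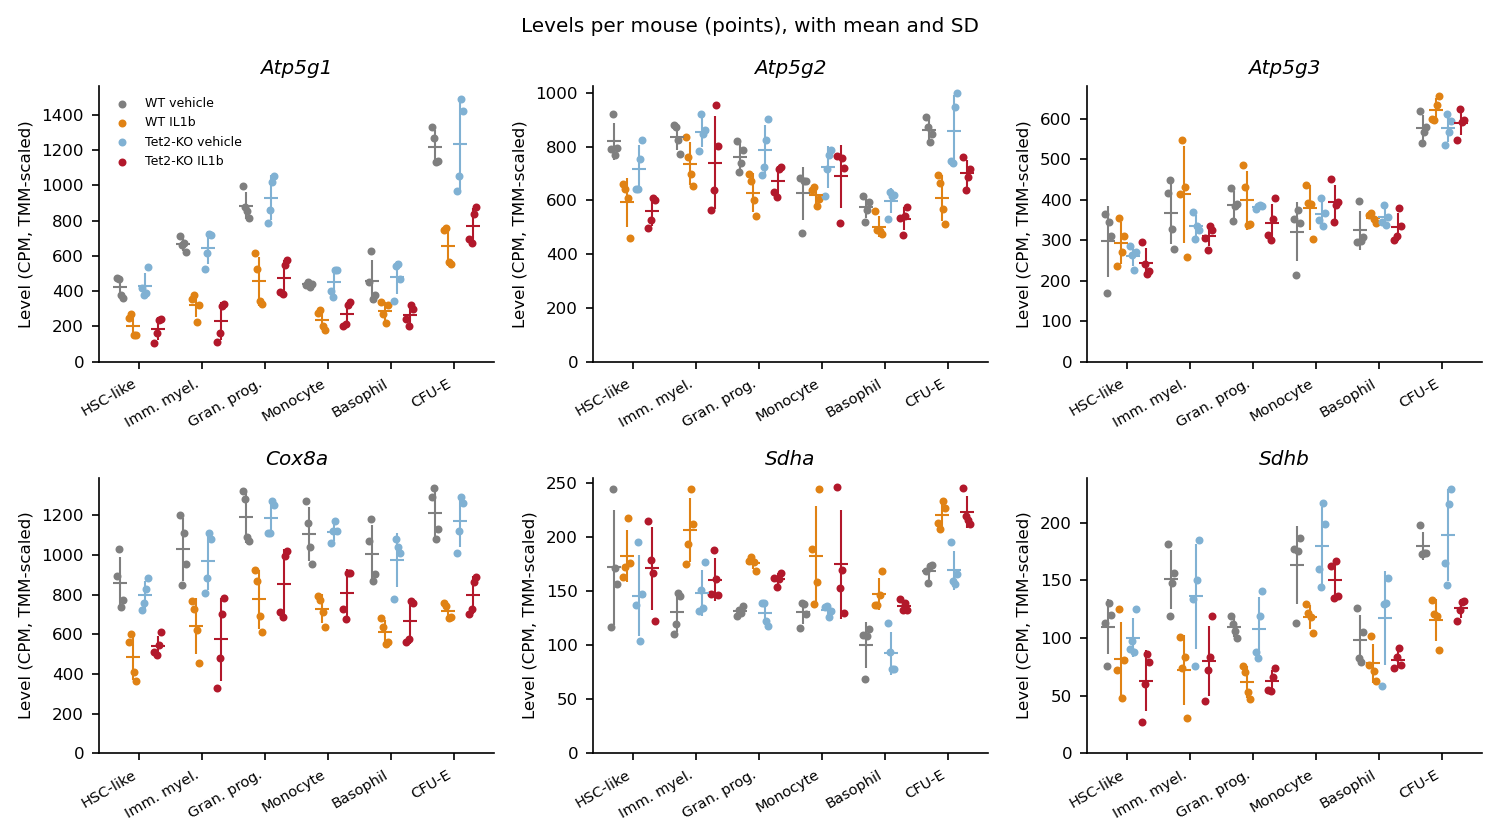
TMM-scaled CPM of Atp5g1, Atp5g2, Atp5g3, Cox8a, Sdha and Sdhb in each mouse (points) with the mean and SD of each of the 4 groups, in 6 cell classes. Cox8a is lower with IL1β in every class without overlap, Atp5g3 is called in none, and in granulocyte progenitors and CFU-E stage cells Sdha is higher and Sdhb lower.

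In complex IV, Cox8a was the member called most often, having fallen in all 12 comparisons with no overlap between groups in any. In CFU-E stage cells of WT mice it went from 1290, 1340, 1080 and 1130 to 757, 742, 680 and 686 CPM (log2 fold change −0.76, SE 0.10, adjusted p = 7.74e-05), a call that held under every alternative run. In Tet2-KO mice it went from 1010, 1120, 1290 and 1260 to 700, 728, 865 and 890 CPM (−0.55, SE 0.10, adjusted p = 0.000963), lost without the second pool with vehicle (−0.41). In HSC-like cells it went from 892, 1030, 736 and 772 to 561, 603, 411 and 365 CPM in WT mice (−0.78, SE 0.16, adjusted p = 0.00183), lost without the second IL1β pool (−0.54), and from 723, 760, 826 and 884 to 512, 495, 546 and 609 in Tet2-KO mice (−0.56, SE 0.15, adjusted p = 0.0137), lost without the second pool with vehicle (−0.46) or the first with IL1β (−0.49). In basophils, where few members passed, it went from 1070, 1180, 869 and 903 to 684, 638, 553 and 563 CPM in WT mice (−0.71, SE 0.14, adjusted p = 0.00473). The basophil call was lost without the first WT pool with vehicle (−0.55) or the second with IL1β (−0.59). The other subunits of complex IV passed less often. Cox5b fell in 4 WT and 3 Tet2-KO classes and Cox7b in 3 and 4, the latter in CFU-E stage cells of WT mice from 914, 922, 796 and 791 to 639, 627, 529 and 495 CPM (−0.57, SE 0.09, adjusted p = 0.000426), a call that held under every alternative run. Cox4i1, the most abundant member, was called once, in CFU-E stage cells of Tet2-KO mice (−0.23, SE 0.08, adjusted p = 0.0464), and that call was lost in 16 of its 25 alternatives, those without the second pool with vehicle (−0.19) and without the first with IL1β (−0.14) included. Cox6a1 and Cox7c were called nowhere. Cox6b1 fell in CFU-E stage cells (−0.33 in WT, adjusted p = 0.00893, and −0.28 in Tet2-KO mice, adjusted p = 0.0266) while Cox6b2 had log2 fold changes of −0.23 and −0.26 (adjusted p = 0.207 and 0.166). The Cox6b1 calls were lost without the first WT pool with vehicle (−0.3) or the second with IL1β (−0.22), and without the second Tet2-KO pool with vehicle (−0.23) or the first with IL1β (−0.22). Cox7a2l, a factor that joins complexes III and IV into supercomplexes, rose in granulocyte progenitors of Tet2-KO mice from 212, 214, 268 and 235 to 282, 295, 297 and 273 CPM (0.30, SE 0.09, adjusted p = 0.0126), and this was lost without the first Tet2-KO pool with vehicle (0.19) or with IL1β (0.29).

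Complex I, with the most members, gave the most calls. Of 37 tested genes, 21 fell in CFU-E stage cells of WT and 18 in those of Tet2-KO mice, in granulocyte progenitors 19 and 21, in HSC-like cells 7 and 13, in immature myeloid progenitors 1 and 11, in monocytes 5 and 4 and in basophils 0 and 4. Of all genes, 9.42% and 9.21%, 14.3% and 19.2%, 3.87% and 5.47%, 4.61% and 8.6%, 4.18% and 3.39%, and 3.34% and 3.52% fell in the same order, so that the single call in WT immature myeloid progenitors and the 0 in WT basophils lie below their backgrounds. None rose in any of the 12 comparisons, in which 1.48% to 16.6% of all genes rose. Ndufa12, an accessory subunit added late in assembly, fell in 5 WT and 6 Tet2-KO classes. In granulocyte progenitors it went from 296, 278, 282 and 290 to 208, 183, 126 and 148 CPM in WT mice (log2 fold change −0.78, SE 0.14, adjusted p = 0.000712) and from 249, 254, 320 and 330 to 136, 143, 196 and 191 in Tet2-KO mice (−0.79, SE 0.14, adjusted p = 0.000287). The 4 mice with IL1β lie below all 4 with vehicle in both genotypes. Ndufs8, an iron-sulfur subunit of the core, fell in granulocyte progenitors of WT mice from 157, 153, 130 and 128 to 91.4, 92.5, 68.9 and 70.9 CPM (−0.79, SE 0.13, adjusted p = 0.000302), which held under every alternative run. In HSC-like cells of Tet2-KO mice it went from 72.1, 97.4, 113 and 135 to 13.5, 65.2, 61.3 and 40.6 CPM (−0.99, SE 0.24, adjusted p = 0.00793), lost without the second pool with vehicle (−0.55) or with IL1β (−0.9). The 13.5 CPM are those of a mouse with 20 HSC-like cells, and so rest on few UMIs. Ndufs4, an accessory subunit whose loss causes Leigh syndrome in people, fell in CFU-E stage cells of WT mice from 128, 109, 108 and 107 to 71.4, 72.1, 63.9 and 66.3 CPM (−0.74, SE 0.11, adjusted p = 0.000191). In monocytes of WT mice it fell from 140, 126, 131 and 127 to 88.8, 73.2, 73.2 and 29.6 CPM (−0.81, SE 0.15, adjusted p = 0.002). The 29.6 CPM are those of a mouse with 27 monocytes. Both calls of Ndufs4 held under every alternative run.

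Further complex I subunits fell in single classes or in several. Ndufb4, a membrane arm subunit, fell in 4 classes of either genotype, in HSC-like cells of WT mice from 270, 301, 205 and 219 to 137, 163, 126 and 94.6 CPM (log2 fold change −0.82, SE 0.17, adjusted p = 0.00313), a call lost without the second WT pool with IL1β (−0.71). Ndufab1, the mitochondrial acyl carrier protein, fell in immature myeloid progenitors of Tet2-KO mice from 325, 265, 368 and 406 to 56.5, 192, 251 and 219 CPM (−0.87, SE 0.22, adjusted p = 0.00687), lost without the second pool with vehicle (−0.66) or the first with IL1β (−0.59). The 56.5 CPM are those of a mouse with 14 cells of this class. Ndufv2, an iron-sulfur subunit of the NADH end, fell in 3 WT and 5 Tet2-KO classes. Its call in HSC-like cells of WT mice (−0.86, SE 0.26, adjusted p = 0.0439) was lost with each of the 4 WT pools left out (−0.77 to −0.99). Members called in none of the 12 comparisons included Ndufs1 of the core and Ndufa2, Ndufa6, Ndufb3, Ndufb11 and Ndufv3. Ndufa4, the second most abundant member, was called in none either, at 1480, 1420, 1370 and 1430 CPM with vehicle and 1480, 1470, 1260 and 1110 with IL1β in granulocyte progenitors of WT mice.

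Of 10 calls upward over the 12 comparisons, 8 were in complexes II and III. In complex II the catalytic pair moved in opposite directions. Sdha, the flavoprotein that oxidizes succinate, had a higher level in all 12 comparisons and passed in 6. In granulocyte progenitors it rose from 127, 132, 130 and 136 to 178, 181, 177 and 168 CPM in WT mice (log2 fold change 0.43, SE 0.08, adjusted p = 0.000574) and from 139, 139, 122 and 118 to 162, 154, 161 and 167 in Tet2-KO mice (0.31, SE 0.07, adjusted p = 0.00269). It rose in CFU-E stage cells from 168, 157, 173 and 174 to 213, 207, 233 and 227 CPM in WT mice (0.38, SE 0.08, adjusted p = 0.00314) and from 195, 159, 156 and 166 to 245, 219, 216 and 212 in Tet2-KO mice (0.38, SE 0.08, adjusted p = 0.00425). It also passed in immature myeloid progenitors of WT (0.61, SE 0.19, adjusted p = 0.0423) and basophils of Tet2-KO mice (0.59, SE 0.15, adjusted p = 0.0247). Without the second Tet2-KO pool with vehicle the calls in Tet2-KO mice were lost (0.22 in granulocyte progenitors, 0.27 in CFU-E stage cells and 0.3 in basophils), in basophils also without either pool with IL1β (0.59 and 0.58). The WT call in CFU-E stage cells was lost without the first pool with vehicle (0.34) or the second with IL1β (0.3), and that in immature myeloid progenitors without either pool with vehicle (0.42 and 0.85) or the second with IL1β (0.44). With the 8 pools as replicates all 6 were lost.

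Sdhb, the iron-sulfur subunit that takes the electrons from Sdha, fell in 4 WT and 3 Tet2-KO classes. In granulocyte progenitors it went from 119, 112, 106 and 100 to 76.0, 70.7, 52.7 and 46.7 CPM in WT mice (log2 fold change −0.79, SE 0.16, adjusted p = 0.00172) and from 87.8, 82.5, 119 and 141 to 54.8, 54.3, 66.2 and 73.9 in Tet2-KO mice (−0.78, SE 0.16, adjusted p = 0.000793). In CFU-E stage cells it went from 198, 173, 174 and 174 to 133, 121, 119 and 89.5 CPM in WT mice (−0.60, SE 0.12, adjusted p = 0.00158) and from 165, 146, 216 and 229 to 115, 124, 131 and 132 in Tet2-KO mice (−0.61, SE 0.12, adjusted p = 0.0017). The groups do not overlap in these 4 comparisons. Without the second Tet2-KO pool with vehicle the calls in Tet2-KO mice were lost (−0.44 and −0.31), while the WT call in CFU-E stage cells held under every alternative run. The membrane anchors Sdhc and Sdhd passed in none of the 12 comparisons, with log2 fold changes of −0.18 to 0.27 and −0.34 to 0.14. The difference between Sdha and Sdhb was not itself tested.

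In complex III, Uqcrb, a small subunit at the ubiquinone site, fell in 3 WT and 4 Tet2-KO classes. In HSC-like cells of WT mice it went from 496, 639, 470 and 395 to 335, 307, 250 and 203 CPM (log2 fold change −0.76, SE 0.16, adjusted p = 0.00396). In granulocyte progenitors it went from 689, 746, 735 and 689 to 608, 568, 457 and 466 CPM in WT mice (−0.44, SE 0.10, adjusted p = 0.00342) and from 699, 749, 767 and 768 to 499, 475, 612 and 602 in Tet2-KO mice (−0.45, SE 0.10, adjusted p = 0.00187). The calls in WT mice were lost without the second pool with IL1β (−0.57 in HSC-like cells and −0.28 in granulocyte progenitors), in HSC-like cells also without the first with vehicle (−0.62), and the Tet2-KO call without the first pool with IL1β (−0.3). Uqcrfs1, the Rieske iron-sulfur protein, fell in CFU-E stage cells of WT (−0.47, SE 0.10, adjusted p = 0.0033) and Tet2-KO mice (−0.35, SE 0.10, adjusted p = 0.0247). These were lost without the first WT pool with vehicle (−0.38) or the second with IL1β (−0.38), and without the second Tet2-KO pool with vehicle (−0.13) or the first with IL1β (−0.28). Uqcrh had a higher level in all 12 comparisons but passed in 1, granulocyte progenitors of Tet2-KO mice, from 892, 870, 852 and 799 to 1050, 927, 994 and 1000 CPM (0.22, SE 0.08, adjusted p = 0.0311). That call was lost without the second Tet2-KO pool with vehicle (0.18) or either pool with IL1β (0.23 and 0.2). Uqcrc2, a core protein of the matrix side, rose in immature myeloid progenitors of WT mice from 146, 106, 112 and 103 to 223, 222, 181 and 137 CPM (0.76, SE 0.19, adjusted p = 0.0141), where the groups overlap. This was lost without either WT pool with vehicle (0.82 and 0.56) or the first with IL1β (0.51).

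Between genotypes no member passed in any of the 6 tested classes, with either treatment. With vehicle, 3 members in HSC-like cells (3.9%, against 4.52% of all genes) and 2 in basophils (2.6% against 4.38%) had an unadjusted p below 0.05 and 0 in each of the other 4 classes (against 3.64% to 5.25%). With IL1β there were 6 in HSC-like cells (7.79% against 7.36%), 10 in immature myeloid progenitors (13% against 7.3%), 3 in CFU-E stage cells, 1 in granulocyte progenitors, 1 in monocytes and 0 in basophils, the last 4 against 5.21% to 8.59% of all genes. For the interaction of genotype and IL1β, which asks whether the response differed, there were 4 in immature myeloid progenitors, 2 in granulocyte progenitors, 2 in monocytes, 1 in basophils, 1 in CFU-E stage cells and 0 in HSC-like cells, against 2.78% to 5.4% of all genes. DESeq2 called 0 members in each of these 18 comparisons too. Few genes of any kind passed. Of all genes tested with vehicle, 0.0985% were higher and 0.0394% lower in Tet2-KO granulocyte progenitors, 0.0105% higher and 0.0105% lower in CFU-E stage cells, 0.0237% higher and 0.0% lower in monocytes, 0.0138% higher and 0.0% lower in basophils and 0.0% in HSC-like cells and immature myeloid progenitors. With IL1β, 0.187% were higher and 0.0788% lower in granulocyte progenitors, 0.0105% higher and 0.136% lower in CFU-E stage cells, 0.014% higher in HSC-like cells, 0.0118% in monocytes, 0.0138% in basophils and 0.0% in immature myeloid progenitors, with 0.0% lower in these last 4. For the interaction, 0.0524% of genes were lower in CFU-E stage cells and 0.0% passed elsewhere. The median log2 fold change of the members between genotypes lay between −0.18 and 0.08. The larger numbers of calls with IL1β in HSC-like cells and immature myeloid progenitors of Tet2-KO than of WT mice are therefore not shown to differ. Directions were not tested. With IL1β, 63 members were lower and 14 higher in immature myeloid progenitors without Tet2, and 55 and 22 in HSC-like cells. In CFU-E stage cells 15 were lower and 63 higher, and in monocytes 23 and 54. Granulocyte progenitors had 39 and 40, basophils 43 and 34. The share of UMIs in HSC-like cells with IL1β was 1.75% to 1.96% without Tet2 and 1.97% to 2.32% in WT mice. These ranges did not overlap, while those with vehicle did.

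Other genes of the mitochondrion were read in the same fits. The 13 respiratory chain genes of the mitochondrial DNA had medians of 0.04 to 0.32 on the log2 scale with IL1β, with 1 to 5 that rose in each comparison (against 1.48% to 16.6% of all genes) and, over the 12 comparisons, 1 that fell (against 3.34% to 19.2%), mt-Nd5 in HSC-like cells of WT mice (−0.47, SE 0.14, adjusted p = 0.0402), lost with each WT pool left out (−0.38 to −0.54). mt-Co1, the catalytic core of complex IV, rose in all 12, by 0.60 (SE 0.13, adjusted p = 0.00259) in granulocyte progenitors and 0.53 (SE 0.12, adjusted p = 0.00399) in CFU-E stage cells of WT mice and by 0.70 (SE 0.13, adjusted p = 0.000433) and 0.55 (SE 0.12, adjusted p = 0.00426) in those of Tet2-KO mice. In CFU-E stage cells the mt-Co1 calls were lost without the first WT pool with vehicle (0.51), and without the second Tet2-KO pool with vehicle (0.25) or the first with IL1β (0.43). The electron carrier cytochrome c, Cycs, fell in granulocyte progenitors of WT (−0.54, SE 0.09, adjusted p = 0.000426) and Tet2-KO mice (−0.92, SE 0.09, adjusted p = 6.47e-06), and its docking partner in complex III, Cyc1, fell there too (−0.49, SE 0.13, adjusted p = 0.00988, and −0.67, SE 0.13, adjusted p = 0.000487). The Cycs calls and the Tet2-KO call of Cyc1 held under every alternative run, and the WT call of Cyc1 was lost without the second WT pool with vehicle (−0.44) or with IL1β (−0.33). Of the 7 carriers and Cyc1, 3 of 7 fell in granulocyte progenitors of each genotype and none rose in any class. The shares of all genes that fell, to be read beside this and the following counts, were 14.3% in WT and 19.2% in Tet2-KO granulocyte progenitors and 9.42% and 9.21% in CFU-E stage cells, and 10.3%, 16.6%, 7.25% and 5.94% rose. Of 41 assembly factors, 15 and 19 of 40 tested fell in granulocyte progenitors and 9 and 10 of 40 in CFU-E stage cells of WT and Tet2-KO mice, among them Coa3 of complex IV (−0.82, SE 0.12, adjusted p = 0.000119 in WT granulocyte progenitors) and Uqcc2 of complex III (−0.79, SE 0.11, adjusted p = 9.64e-05), both called under every alternative run. Coa5 rose there (0.41, SE 0.09, adjusted p = 0.00344).

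The tricarboxylic acid cycle, which feeds the chain with NADH and succinate, was mixed. In granulocyte progenitors 4 of 18 genes fell (against 14.3% of all genes) and 1 rose in WT mice, and 7 fell (against 19.2%) and none rose in Tet2-KO mice. Suclg1, of the succinate-forming step, fell (−0.64, SE 0.12, adjusted p = 0.000749 in WT and −0.70, SE 0.12, adjusted p = 0.000139 in Tet2-KO mice), in both genotypes under every alternative run. So did fumarase, Fh1, downstream of complex II (−0.64, SE 0.17, adjusted p = 0.00875 and −0.82, SE 0.16, adjusted p = 0.000543), lost without the first WT pool with vehicle (−0.53), the second with IL1β (−0.47) or the second Tet2-KO pool with vehicle (−0.42). Ogdh, of the 2-oxoglutarate dehydrogenase, rose in CFU-E stage cells (0.53, SE 0.10, adjusted p = 0.00169 and 0.48, SE 0.10, adjusted p = 0.00452), the Tet2-KO call being lost without the second pool with vehicle (0.34) or the first with IL1β (0.35). Of 13 regulators of mitochondrial biogenesis, 12 were tested in granulocyte progenitors, where 1 rose and 1 fell in WT mice (against 10.3% and 14.3% of all genes) and 2 rose and 2 fell in Tet2-KO mice (against 16.6% and 19.2%). Among them Tfam, which packages and transcribes mitochondrial DNA, fell in granulocyte progenitors (−0.54, SE 0.12, adjusted p = 0.00216 and −0.36, SE 0.11, adjusted p = 0.0123), the latter lost without the second Tet2-KO pool with vehicle (−0.21) or with IL1β (−0.33). Gabpa rose there (0.63, SE 0.13, adjusted p = 0.00188 and 0.56, SE 0.12, adjusted p = 0.00115), in Tet2-KO mice not without the second pool with vehicle (0.4). A link between Gabpa and members with its motif was not tested. Of the 7 nucleotide and phosphate carriers and channels, with 6 tested, 1 fell in WT and 4 in Tet2-KO granulocyte progenitors, where 14.3% and 19.2% of all genes fell, and none rose in any class. Of 24 cycling genes of S and G2M phase, 2 rose and 3 fell in WT granulocyte progenitors, near the 10.3% and 14.3% of all genes that did. In those of Tet2-KO mice 7 fell (against 19.2%) and none rose (against 16.6%). In WT CFU-E stage cells 4 rose and 5 fell, against 7.25% and 9.42% of all genes.

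Other lists had lower medians too. Those chosen after their values had been seen, and so only descriptions, had medians of −0.19 to −0.49 for 92 cytosolic ribosomal proteins, −0.27 to −0.67 for 76 mitochondrial ribosomal proteins and −0.28 to −0.47 for 38 proteasome subunits over the 12 comparisons. The range of the nuclear-encoded members was −0.18 to −0.42 and that of the assembly factors −0.16 to −0.52.

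**Figure D5:**
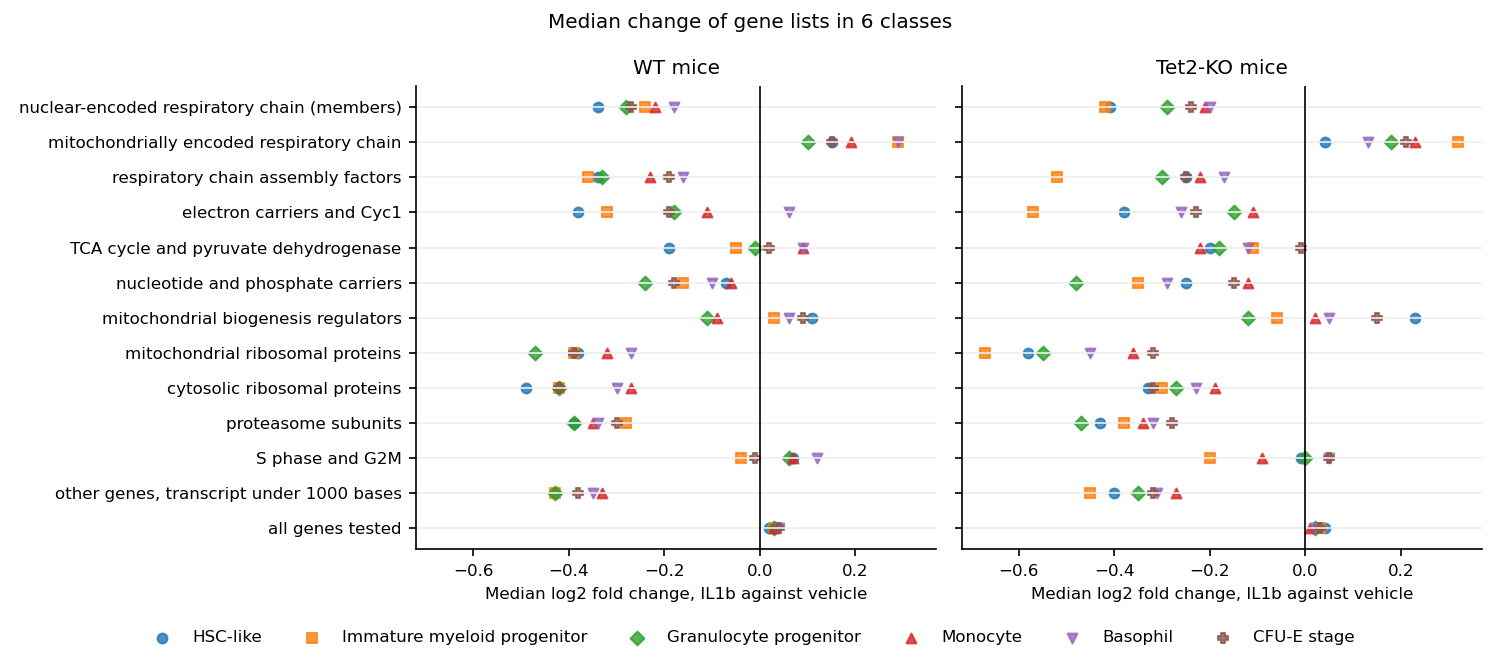
Median log2 fold change with IL1β against vehicle (horizontal axis) of the nuclear-encoded respiratory chain genes, of other gene lists, of other genes with transcripts under 1000 bases and of all genes tested, one mark per cell class, for WT and Tet2-KO mice. The nuclear-encoded members lie at −0.18 to −0.42, the 13 mitochondrially encoded genes at 0.04 to 0.32 and all genes at 0.01 to 0.04.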

How the data were processed

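Single-cell 3′ libraries of lineage-depleted marrow from 16 mice were read as deposited by the authors, who made whole-number UMI counts per gene and barcode, not normalized, with Cell Ranger 3.1.0 on mm10 (version per the submitters' processing notes, which also name Seurat 3.2.3). The members and the gene lists were chosen with earlier results of these data known. Cells with at least 750 genes and at most 10% mitochondrial UMIs were kept and tied to mice with HTODemux of Seurat 5.3.0 on the hashtag counts. This left out cells without a hashtag call and doublets between mice, but not doublets within a mouse. Cells passing 1 of 18 marker gates, and no other, entered a class. Genes used in gates are not members.

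UMIs were summed per mouse and class (at least 10 cells). For 6 of the 8 classes with all 16 mice (monocyte-primed and megakaryocyte progenitors were not among the classes listed for testing), edgeR 4.0.16 (R 4.3.3; TMM, filterByExpr, quasi-likelihood test, Benjamini-Hochberg adjustment) was fitted over all genes and all 4 groups. Members passing the low-count filter numbered 77 to 79 of 85, and the rest are given by their UMIs only. Shares and medians carry no test. Nothing in the labels ties the pools of different groups to each other, and the deviations of pools of the same number had correlations of −0.51 to 0.44, over 0.1 in only 1 to 3 of the 6 pairs of groups per class, so that the number was not taken as a pairing. On simulated counts with 200 genes changed, fitted for IL1β in Tet2-KO mice, 64% to 92% of genes with a log2 fold change of 1 were recovered over the 6 classes, and 2.54% to 8.99% of calls were false. The false share was above the limit of 0.05 in HSC-like cells (8.99%), monocytes (5.41%), basophils (5.08%) and CFU-E stage cells (7.18%). Recovery of changes below 1, where the medians of the members lie, was not measured.

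Named were, per class and comparison, up to 4 members in each direction with the largest change among those called without overlap of the mice (otherwise among all called), the leading member of each complex, the isoform pairs and Atp5g1, Atp5g2 and Atp5g3. Other members and list genes were named after their values were seen. Alternatives were DESeq2 1.42.0 with its own size factors, no low-count filter, a mitochondrial limit of 5% (for shares only), the pool number as a replicate block, the 8 pools as replicates, Leiden clusters (resolution 1, none of immature myeloid progenitors) in place of gates, shares without mitochondrial and ribosomal genes, and each mouse left out. Each library left out was added after the data were seen. Sequences are RefSeq's. Depth per mouse and class was 25685 to 12509681 UMIs, from 55144 in the tested classes.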

Additional observations from a re-analysis of the deposited data

Results flagged for a closer look

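With 4 mice a group, values set apart from their group were looked for in the shares of UMIs (46 groups, 2 found) and in the named genes (164 groups, 5 found). Chance sets apart about 1 group in 20. In CFU-E stage cells of Tet2-KO mice with vehicle 1 mouse had the lowest share of respiratory chain UMIs, 3.7%, far from the other 3, and in HSC-like cells of WT mice with vehicle 1 mouse had the lowest, 2.4%. Among the genes, Ndufb4 was set apart by its highest mouse at 173 CPM in HSC-like cells of Tet2-KO mice with IL1β, and Atp5d by its highest at 265 CPM in immature myeloid progenitors of the same group. Sdha was set apart by its lowest mouse at 68.5 CPM in basophils of WT mice with vehicle. In CFU-E stage cells of WT mice with vehicle the highest mouse was set apart for Ndufs4, at 128 CPM, and for Sdhb, at 198 CPM.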

How the results depend on the processing

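Counts here are members called in either direction, given for WT and then Tet2-KO mice, IL1β against vehicle. The shares of all genes called in the same runs are not given, so no count in this section is set against a background. Of the comparisons of genotype and of the interaction, all kept 0 calls under each alternative run for them, except that without the low-count filter 1 member passed in monocytes with IL1β. Leiden clusters gave no value for immature myeloid progenitors, and the mitochondrial limit of 5%, run for shares alone, moved none of the 12 differences in share by more than the spread between mice. With the 8 pools as replicates the counts that moved by more than 1.5 times were 5 in WT HSC-like cells, 4 and 15 in immature myeloid progenitors, 3 and 7 in granulocyte progenitors, 1 and 0 in monocytes, 0 and 0 in basophils and 0 in Tet2-KO CFU-E stage cells. Without the first WT pool with vehicle the WT counts were 9 in HSC-like cells, 1 in immature myeloid progenitors, 15 in granulocyte progenitors, 3 in monocytes, 0 in basophils and 17 in CFU-E stage cells. Without the second they were 4, 2, 21 and 2 in the first 4 of these. Without the first WT pool with IL1β, 53 were called in granulocyte progenitors and 6 in basophils, and the medians were −0.49 in HSC-like cells, −0.48 in immature myeloid progenitors and −0.46 in granulocyte progenitors. Without the second, the counts were 0, 1, 11, 1, 0 and 17 in the order above, and the medians −0.09 in granulocyte progenitors and −0.11 in monocytes. Without the first Tet2-KO pool with vehicle, 14 were called in monocytes and the median in HSC-like cells was −0.54. Without the second, 2, 2, 15, 0, 0 and 0 were called. Without the first Tet2-KO pool with IL1β, 8, 1, 14, 0, 0 and 8 were called, with medians of −0.18 in immature myeloid and −0.15 in granulocyte progenitors. Without the second, 18 were called in HSC-like cells and 41 in immature myeloid progenitors, and the medians were −0.53, −0.7, −0.47, −0.32 and −0.33 in HSC-like cells, immature myeloid progenitors, granulocyte progenitors, basophils and CFU-E stage cells. In Leiden clusters 32 and 28 were called in monocytes and 14 and 18 in basophils, the median in WT HSC-like cells was −0.2 and the differences in share there were −0.165 and −0.335 percentage points. DESeq2 called 9 in WT basophils, and without the low-count filter 5 and 7 were called in basophils. Without mitochondrial and ribosomal genes in the total the differences in share were −0.736 and −0.863 in HSC-like cells, −0.703 and −1.0 in immature myeloid progenitors, −0.417 in WT granulocyte progenitors, −0.272 in WT basophils and −0.768 and −0.604 in CFU-E stage cells. The cause was not tested.

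With the pool number as a replicate block, 16 and 31 members were called in HSC-like cells, 10 and 29 in immature myeloid progenitors, 32 and 41 in granulocyte progenitors, 10 and 10 in monocytes, 4 and 13 in basophils and 43 and 38 in CFU-E stage cells. The pools share only a number.

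Leaving out 1 mouse at a time gave 4 to 17 and 14 to 33 calls in HSC-like cells, 2 to 13 and 10 to 33 in immature myeloid progenitors, 26 to 44 and 31 to 46 in granulocyte progenitors, 3 to 11 and 2 to 11 in monocytes, 2 to 7 and 0 to 18 in basophils and 34 to 45 and 16 to 44 in CFU-E stage cells. The 0 in basophils came without Tet2-KO vehicle mouse 3 or 4 or Tet2-KO IL1β mouse 2, and the 16 in CFU-E stage cells without either of the first 2. The medians were −0.4 to −0.26 and −0.49 to −0.33 in HSC-like cells, −0.33 to −0.22 and −0.53 to −0.31 in immature myeloid progenitors, −0.36 to −0.19 and −0.34 to −0.21 in granulocyte progenitors, −0.27 to −0.17 and −0.24 to −0.17 in monocytes, −0.23 to −0.14 and −0.29 to −0.18 in basophils and −0.3 to −0.24 and −0.27 to −0.21 in CFU-E stage cells. The differences in share, in percentage points, were −0.376 to −0.26 and −0.526 to −0.426, −0.393 to −0.173 and −0.712 to −0.478, −0.269 to 9.39e-05 and −0.343 to −0.114, −0.318 to −0.145 and −0.224 to −0.102, −0.17 to −0.0786 and −0.295 to −0.143, and −0.346 to −0.278 and −0.322 to −0.212 in the same order. The value of 9.39e-05, the only change of sign, came without WT IL1β mouse 4. Apart from the granulocyte progenitors, with 151 or more, the counts rest on as few as 13 to 23 cells in a mouse.

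Over the 101 results for single genes given with a call, 2140 of 2514 values under the alternatives kept direction and call, 374 kept only the direction and 0 reversed, and 22 of the 101 kept the call throughout. Most of the 2514 values came from leaving out each of the 16 mice in turn, where 1464 kept the call and 152 lost it. Those runs include mice of the genotype outside the comparison, so the total does not measure how far calls depend on the libraries. With a library left out, calls kept and lost ran from 11 and 39 (second Tet2-KO pool with vehicle) to 48 and 2 (the first). With the 8 pools as replicates 59 of the 101 lost the call and 42 kept it, and with DESeq2 4 lost it.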
